A study of Mus musculus with 36 samples.

Results

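The cells described here are macrophages of the mouse submandibular salivary gland that held complement C1q transcripts and lacked a tissue-remodeling signature. A barcode was counted as a C1q-positive macrophage if it passed the limits of at least 100 genes and under 15% mitochondrial unique molecular identifiers (UMIs), held a UMI in 2 or more of C1qa, C1qb and C1qc, and held a UMI in fewer than 2 of Mmp12, Spp1 and Gpnmb. This rule found 2246 members among 25993 barcodes that passed the limits, of 30082 barcodes in all. The members were thus chosen by their measured UMIs, so their C1q levels, and their RNA against that of other cells, are given as a description with no test.

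Single-cell transcriptomes came from Drop-seq of 26 glands, 12 control and 14 double-mutant, and from CITE-seq of 4 glands, 2 of each genotype. Drop-seq covered P40 (6 control, 7 double-mutant) and P90 (6 control, 7 double-mutant), and CITE-seq, which reads antibody tags and RNA from the same cell, covered P70. Double-mutant mice carried a β-catenin gain-of-function and a Bmpr1a loss-of-function allele, both recombined by K14-Cre, together with an R26 EYFP reporter, and they develop salivary gland tumors. Control mice, most of which the labels call wildtype, had the K14-Cre driver and the R26 EYFP reporter, which Cre switches on, without the mutant alleles. All mice had a C57BL/6 background per the study's methods. K14-Cre is known for its activity in basal epithelial cells. EYFP UMIs were also counted in members, at 34.8 to 373 CPM in control and 0 to 256 CPM in double-mutant Drop-seq glands, and whether members carried recombined alleles was not tested. By the labels every Drop-seq group held both sexes, the CITE-seq controls were 1 male and 1 female, and both CITE-seq double-mutant glands were female, with 1 gland to a library. The P40 and the P90 control glands were run in separate batches, so in controls stage and batch cannot be told apart.

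C1q is the recognition molecule of the classical complement pathway, built from the products of C1qa, C1qb and C1qc. In most organs tissue macrophages are its main source, and they hold it beside lysosomal cathepsins such as cathepsin S (Ctss), which trims the invariant chain Cd74 off MHC class II before peptide loading. Resident macrophages of glands clear dying cells and debris, present antigen and answer damage with chemokines and interleukin 1.

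Ftl2, the gene with the smallest adjusted p by genotype in members, differs from the ferritin light chain gene Ftl1 by few bases. In the GENCODE vM21 annotation of GRCm38 the locus that carries this name is the processed pseudogene Ftl2-ps, at chr4:125504288-125504839 on the plus strand, and Ftl1 is a protein-coding gene at chr7:45457944-45459884 on the minus strand. Both hold 552 bases from start to stop codon, which were 98.73% identical. They differed at 7 bases. A UMI of Ftl2 and a UMI of Ftl1 can be told apart only where a read covers 1 of these bases or sequence outside this frame, so counts of either gene are uncertain to the extent that the alignment could exchange them.

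Library totals ranged from 777537 to 7013325 UMIs in Drop-seq and from 1136442 to 2459694 in CITE-seq. Members were small in RNA, with a median of 714 UMIs and 445 genes, against 1483 UMIs over all barcodes. Of the 25972 distinct barcode sequences, 21 occurred in more than 1 library, 1 of them among members. Some libraries went against their sex labels. Double-mutant P40 replicate 1, labelled male, held 591 Xist UMIs and 1 UMI of Y-linked genes, and double-mutant P90 replicate 5, labelled female, held 0 and 194. All 4 CITE-seq libraries held cells of both kinds, from 107 to 143 with Xist alone and from 20 to 80 with Y-linked UMIs alone. A further 3 to 8 cells a library held both. Whether each library held cells of animals of both sexes was not tested. Among CITE-seq members 19 to 37 cells a library had Xist alone and 0 to 5 had Y-linked UMIs alone. Results with and without the pair of Drop-seq libraries are given below.

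Members carried the program of a macrophage beyond the genes that chose them. All 3 C1q genes had a UMI in 1378 members (61.4%) and 2 of them in 868. Just outside the rule stood 1020 barcodes with 1 C1q gene, with a median of 1 C1q UMI against 6 in members, and 104 barcodes with C1q and 2 or more remodeling genes. Averaged over the 23 Drop-seq glands with at least 10 members, the genes with the highest ratio to the other cells of the gland after the C1q genes were Retnla, higher in members in 9 of 23 glands, Il12b in 21, and Ccl12 and Ms4a7 in all 23. Cx3cr1, the fractalkine receptor, stood at 401 CPM (a gene's UMIs scaled to a total of 1000000) in members and 6.49 in other cells. Csf1r, the receptor for the macrophage growth factor CSF1, stood at 536 and 11.1 CPM, and Adgre1, which encodes F4/80, at 193 and 4.01 CPM. Aif1, Ly86, Lair1 and Tmem119 were likewise higher in members in each of the 23 glands. Markers of resident macrophage subsets were uneven. Lyve1 had 7 UMIs over the 23 glands, Timd4 5, Vsig4 4, Folr2 26 and Cd163 28. Stab1, a scavenger receptor, stood at 132 CPM in members and 6.10 in other cells, Pf4, a chemokine, at 119 and 3.19, Mrc1, the mannose receptor, at 97.1 and 3.25, and F13a1, a coagulation factor subunit, at 30.7 and 1.02.

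Marker lists of other immune cells were low in members but not empty. The summed level of 10 T and NK cell genes was 0 to 52.1 CPM in control and 0 to 161 CPM in double-mutant members, with Cd3e, Cd2, Gzmb and Ncr1 at 0 in every fitted gland. That of 7 dendritic cell genes was 0 to 49.3 and 0 to 105 CPM, with Cd209a at 0, Flt3 at 4 UMIs and Xcr1 at 5, beside 9 for Clec9a, 14 for Ccr7 and 25 for Dpp4. That of 5 neutrophil and mast cell genes was 0 to 112 and 0 to 90.5 CPM, with Retnlg, Mcpt4 and Cpa3 at 0 and Ly6g at 1 UMI. Csf3r, the receptor for G-CSF, had 50 UMIs and stood at 29.1 CPM in members against 1.51 in other cells.

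Barcodes with a UMI in 2 or more of Mmp12, Spp1 and Gpnmb numbered 162 and are called remodeling macrophages here, of which 104 held 2 or more C1q genes. Levels were compared as mean CPM over the Drop-seq glands with 5 or more cells of a kind. These were 25 glands of both genotypes for members and 9 for remodeling macrophages, which were all double-mutant. Compared with remodeling macrophages, members had more Cd74 (13098 against 5760 CPM), H2-Aa (6793 against 2736) and Cx3cr1 (376.9 against 200.8). They had less Lgals3 (414 against 3359), which encodes galectin 3, less Fn1 (46.6 against 832), which encodes fibronectin, and less Lpl (262 against 2354), the lipoprotein lipase. A further 1231 barcodes with 2 or more MHC class II genes and at most 1 C1q gene are called C1q-low MHC class II cells here. Over the 26 Drop-seq glands with 5 or more of them, they still held C1qa at a mean of 147 CPM. Beside Cd74 at 3965 CPM (other cells 276), they held Igkc at 14287 (1700) and Jchain at 4523 (511). Dcpp1, of the acinar list, stood at 21556.5 CPM (21314). These barcodes thus also carried plasma cell and epithelial transcripts, and whether they were all MHC class II cells was not tested. Csf1r stood at 107 CPM in them against 503 in members. Inflammatory mediators were abundant in members, with Cxcl2 at 7057, Ccl4 at 5919, Il1b at 2692 and Tnf at 1284 CPM.

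Transcripts of the secretory epithelium were also counted in members. Spt1, a salivary protein of acinar cells, was their most abundant transcript at 90348 CPM, followed by Scgb1b27 and Scgb2b27. The summed level of 11 acinar genes in members ranged from 2204 to 197606 CPM (median 39722) in control glands and from 1245 to 101858 CPM (median 21625) in double-mutant glands. In other cells of the same glands it ranged from 29495 to 312553 CPM. Of barcodes with 2 or more of Krt8, Krt18 and Epcam, which should lack C1q, 48 of 5055 in control (0.9496%, exact binomial 95% interval 0.701 to 1.26; median depth 2591 UMIs) and 54 of 4299 in double-mutant Drop-seq glands (1.26%, 0.945 to 1.64; 1867 UMIs) held 2 or more C1q genes. These made up 10.3% of control members and 4.14% of double-mutant members, whose median depths were 794.5 and 694 UMIs.

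C1q-positive macrophages took a larger share of the barcodes in double-mutant glands than in control glands. In the 12 control Drop-seq glands they were 0.576% to 10.1% of barcodes (median 3.01%), and in the 14 double-mutant glands 5.18% to 19.9% (median 8.58%). The groups overlapped: 4 control glands lay within the double-mutant range. The mean share was 4.27% ± 3.72 (SD, n = 12) against 10.4% ± 5.09 (SD, n = 14), a difference of 6.14 percentage points (two-sided permutation test, p = 0.00178). A binomial mixed model with sex, stage and genotype as fixed effects and gland as random effect gave an odds ratio of 3.41 (log odds 1.23 ± 0.29 SE, p = 2.564e-05). Cells were sorted as DAPI-negative before encapsulation, and the share is of captured barcodes, not of the tissue.

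The difference was seen at both stages. At P40 the control glands had 0.737% to 8.99% (median 1.71%) and the double-mutant glands 5.18% to 17.9% (median 6.96%), with means of 3.09% and 8.31% (exact permutation test, p = 0.0198). At P90 the ranges were 0.576% to 10.1% (median 6.26%) and 5.96% to 19.9% (median 12.4%), with means of 5.44% and 12.5% (exact permutation test, p = 0.0221). The genotype effect was 1.84 percentage points larger at P90, which did not pass the permutation test (p = 0.577). Within double-mutant glands the share was 4.19 points higher at P90 than at P40 (exact permutation test, p = 0.120), and with each cell thinned to 1000 UMIs it was lower by 1.19 points (p = 0.812), so no change with stage was detectable. Glands labelled male had a mean of 7.37% and those labelled female 7.74% (difference -0.37 points, permutation p = 0.869).

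**Figure D1:**
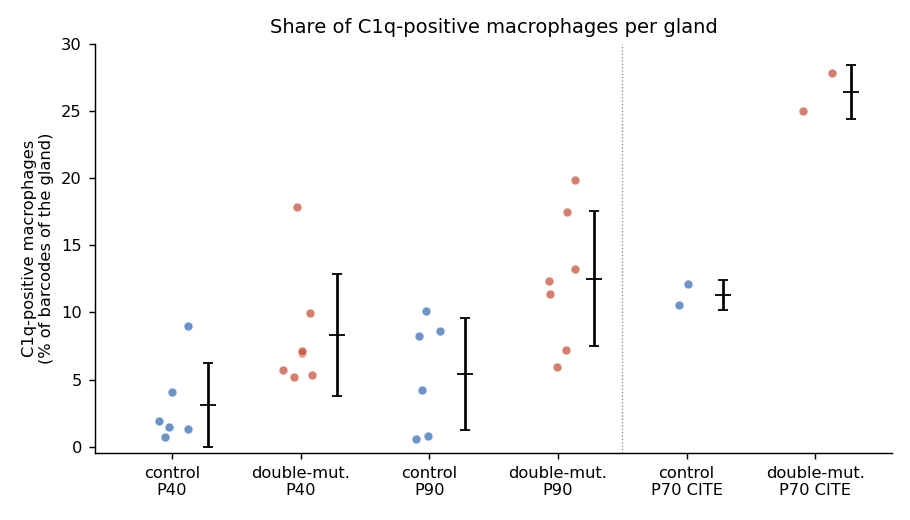
C1q-positive macrophages as a percentage of the barcodes of each gland (y axis) by genotype, stage and assay (x axis). Each point is 1 gland, bars beside the points are the mean ± SD, and the dotted line separates Drop-seq from CITE-seq; double-mutant means stood at 8.31%, 12.5% and 26.4% against 3.09%, 5.44% and 11.3% in controls.

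The difference was also present at matched depth and between the batch means in 4 of 5 batches, 2 of which mix stages. With each cell thinned to 500 UMIs and shallower cells left out, the shares were 2.82% and 8.13% (permutation p = 0.00042), and at 1000 UMIs 1.26% and 5.42% (p = 0.00052). The genotypes lost unequal parts of their barcodes. At 500 UMIs 351 control and 2624 double-mutant barcodes were left out, and 10392 and 9979 kept. At 1000 UMIs 2362 and 5655 were left out, and 8381 and 6948 kept. In the 5 batches that held both genotypes the double-mutant mean was higher by 13.8 points in B8, 2.92 in B12, 6.19 in B13 and 3.99 in B14, and lower by 3.24 in B9, which held 2 control glands and 1 double-mutant gland, P90 replicate 4. Batches B12 and B13 held controls of P40 alone and double-mutant glands of both stages. In B12 the double-mutant gland of P40 had 5.69% and that of P90 13.2%, against 4.09% and 8.99% in controls. In B13 the double-mutant glands of P40 had 9.96% and 7.16% and that of P90 7.21%, against 1.92% in the control. Over the 5 batches with both genotypes the means were 3.83% and 9.25% (permutation within batches, p = 0.0119), with stages not kept apart. Without the 2 libraries against their sex labels the difference was 5.77 points (permutation p = 0.00276). In CITE-seq the control glands had 10.5% and 12.1% and the double-mutant glands 25% and 27.8%, which did not overlap; with 2 glands a group the exact permutation test cannot go below p = 0.333.

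Gene levels of members were compared over 23 Drop-seq glands with at least 10 members (5 control P40, 4 control P90, 7 double-mutant P40, 7 double-mutant P90), with sex and stage as covariates. The 3 control glands left out had 4 to 7 members. Member UMIs per gland ranged from 23138 to 228637. Of 1464 genes tested, 21 were higher and 14 lower in double-mutant glands (35 in all, 2.39% of those tested; edgeR quasi-likelihood test, Benjamini-Hochberg adjusted p below 0.05). Of the 35, 21 were higher in members than in the other cells of the glands, 19 of them rising and 2 falling, and the other 14 were higher in other cells, 2 rising and 12 falling. Rises made up 1.43% and falls 0.956% of the genes tested, 264 genes had an unadjusted p below 0.05, and for no gene were the 2 groups of glands free of overlap (0.0%). Without any scaling beyond the total of each gland the median of all genes shifted by 0.54 (log2) and the split became 169 rises and 9 falls, so changes are given relative to the TMM-scaled median of -0.00. Without the 2 libraries against their sex labels 28 of 1397 genes were called, 14 each way. The count rested on single libraries: it was 8 without control P40 replicate 3, 16 and 20 without control P90 replicates 6 and 5, 20 without control P40 replicate 2, 54 without control P40 replicate 1 or double-mutant P40 replicate 3, and 62 without double-mutant P90 replicate 7. In the other cells of the same glands 587 of 11717 genes were called (5.01%; 4.49% higher, 0.521% lower); their values are set beside those of members below, from the same glands.

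Ftl2 was nearly absent from control members. In the 9 control glands it was at 0 in 6 and at 5.09, 9.11 and 24.6 CPM in the others, and in the 14 double-mutant glands it ranged from 14.9 to 1905 CPM (median 356). The groups overlapped by 1 gland each, control P90 replicate 5 and double-mutant P90 replicate 2. The log2 change was 5.47 ± 0.75 (SE; adjusted p = 0.0001383). In CITE-seq it was at 0 in both control glands and at 413 and 1133 CPM in the double-mutant glands, at least 39.3-fold higher against a floor of 3 counts over the control group. Ftl1, its near-identical coding counterpart, ranged from 419 to 5392 CPM in control and from 612 to 5504 CPM in double-mutant glands, with a log2 change of 0.08 ± 0.28 (adjusted p = 0.902). Fth1, the ferritin heavy chain, had a log2 change of 0.23 ± 0.26 (adjusted p = 0.664). In the other cells of the same glands Ftl2 changed by 5.67 ± 0.68 on the log2 scale (adjusted p = 7.111e-05), and in C1q-low MHC class II cells by 5.10 ± 0.95 (adjusted p = 0.00213; 11 of 694 genes called there, 1.59%, with 0.72% higher and 0.865% lower).

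H2-Eb1, the β chain of the MHC class II molecule I-E, rose, and over both stages the other class II genes did not pass the test. It lies at chr17:34305867-34316674 in GRCm38, in the cluster that holds H2-Aa and H2-Ea-ps. Control glands ranged from 72.9 to 2849 CPM (median 234) and double-mutant glands from 1624 to 8366 CPM (median 2996). All double-mutant glands lay above 8 of the 9 control glands, and control P40 replicate 6 lay within their range. The log2 change was 2.06 ± 0.51 (adjusted p = 0.0307), beside 3.49 ± 0.70 in other cells (adjusted p = 0.00538) and 2.96 ± 0.75 in C1q-low MHC class II cells (adjusted p = 0.0381). CITE-seq gave 2345 and 3712 CPM in control and 6681 and 9028 CPM in double-mutant glands. H2-Aa and H2-Ab1, the chains of I-A, had log2 changes of -0.65 ± 0.25 (adjusted p = 0.138) and -0.40 ± 0.23 (adjusted p = 0.347), and the invariant chain Cd74 one of -0.02 ± 0.29 (adjusted p = 0.981). H2-Ea-ps, the I-E α chain locus, annotated as a polymorphic pseudogene, had a log2 change of -1.94 ± 0.56, just outside the threshold (adjusted p = 0.0523). Within P90 H2-Ea-ps fell by 3.39 ± 0.72 on the log2 scale (adjusted p = 0.0148), from 173 to 492.5 CPM in control glands to 0 to 138 CPM in double-mutant glands, while H2-Eb1 rose by 3.19 ± 0.72 (adjusted p = 0.0223). Of 8 MHC class II genes tested 1 was called, and the median log2 change of the list was -0.19 against -0.00 over all genes tested.

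Il1rn, which encodes the interleukin 1 receptor antagonist, ranged from 0 to 140 CPM (median 28.2) in control and from 133 to 996 CPM (median 272) in double-mutant glands, with 1 control gland inside the double-mutant range. Its log2 change was 2.31 ± 0.38 (adjusted p = 0.00144), beside 5.04 in other cells (adjusted p = 0.00035). Its CITE-seq levels were 0 and 95.6 CPM in control and 97.8 and 130 CPM in double-mutant glands. By contrast, Il1b and Il1a, which encode interleukin 1 itself, had changes of -0.01 ± 0.22 and -0.44 ± 0.21 (adjusted p = 0.985 and 0.277). Vcam1, an adhesion molecule that binds integrin α4β1, was at 0 in all 5 control P40 glands, at 13.3 to 130 CPM in the 4 control P90 glands and at 34.9 to 275 CPM in double-mutant glands. Its log2 change was 2.49 ± 0.49 (adjusted p = 0.00691), and at P40 the double-mutant level was at least 14.4-fold higher against a floor of 3 counts over the control group. Itgb2, the β2 chain of the complement receptor CR3, rose by 1.55 ± 0.39 (adjusted p = 0.0321), from 0 to 86.4 CPM (median 39.0) to 21.8 to 325 CPM (median 130).

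Ccl8, a chemokine that attracts monocytes and T cells, was at 0 in 7 of 9 control glands and at or below 13.98 CPM in the other two, and it ranged from 0 (3 glands) to 630 CPM (median 115) in double-mutant glands. The log2 change was 4.997 ± 1.007 (adjusted p = 0.00707). Control P90 replicate 3, left out of the fit with 5 members, stood at 2499 CPM, above every double-mutant gland, from 22 UMIs. With glands of 5 or more members in the fit Ccl8 had a log2 change of 1.46 (adjusted p = 0.419). Retnla, a secreted product of alternatively activated macrophages, had 1 UMI over all 9 control glands and ranged from 0 (6 glands) to 2440 CPM in double-mutant glands (log2 change 6.19 ± 1.69, adjusted p = 0.0476). Its highest value was in double-mutant P40 replicate 1, a library against its sex label, and leaving out single glands ended the call in 8 of 19 fits (adjusted p up to 0.179). Of the 14 chemokine and cytokine genes tested, Ccl8 alone was called, with a list median of 0.17.

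Gdpd3, which encodes a lysophospholipase D, was at 0 in 7 of 9 control glands, with 49.3 CPM as the highest, and ranged from 41.7 to 306 CPM (median 118) in double-mutant glands (log2 change 3.46 ± 0.60, adjusted p = 0.00246). A single control gland, at P90, overlapped. Mdm2, the ubiquitin ligase of p53, rose by 1.51 ± 0.29 (adjusted p = 0.00459), from 0 to 141 CPM to 99.9 to 321 CPM. Pou2f2, a lymphoid and myeloid transcription factor, rose by 1.499 ± 0.368 (adjusted p = 0.0302), Ppp2ca, the catalytic subunit of protein phosphatase 2A, by 1.41 ± 0.36 (adjusted p = 0.0331), and Rps28, a ribosomal protein, by 1.34 ± 0.32 (adjusted p = 0.0240). AA467197, which encodes the mitochondrial protein NMES1, rose by 2.49 ± 0.62 (adjusted p = 0.0307), from 0 to 234 CPM (median 0) to 69.98 to 620 CPM (median 133). Tgfbi, a secreted matrix protein, rose by 1.31 ± 0.28 (adjusted p = 0.0112), from 53.3 to 475 CPM in control to 177 to 802 CPM in double-mutant glands. The 2 falls among genes higher in members were Id2, an inhibitor of helix-loop-helix transcription factors (-0.88 ± 0.20, adjusted p = 0.0213), and Tmem176a, a membrane protein of antigen-presenting cells (-0.82 ± 0.21, adjusted p = 0.0321); for both the ranges of the groups overlapped widely. Among the other genes that rose were Cd44, the hyaluronan receptor, Lgals3bp and Slfn2, with log2 changes of 1.21, 1.13 and 0.80, beside Grn, given next.

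Values in the other cells come from the same glands. There Gdpd3 had a log2 change of 5.33 (adjusted p = 5.844e-07), Tgfbi of 3.04 (adjusted p = 0.00497), Itgb2 of 2.69 (adjusted p = 0.0201), Vcam1 of 1.75 (adjusted p = 0.0397), Rps28 of 1.42 (adjusted p = 0.0135) and Id2 of -0.77 (adjusted p = 0.0263). Mdm2 (0.43, adjusted p = 0.171), Cd44 (0.15, adjusted p = 0.790), Pou2f2 (1.65, adjusted p = 0.120), Ppp2ca (0.66, adjusted p = 0.122) and Tmem176a (0.03, adjusted p = 0.956) did not pass the test there. The difference between members and other cells in these changes was not tested.

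**Figure D2:**
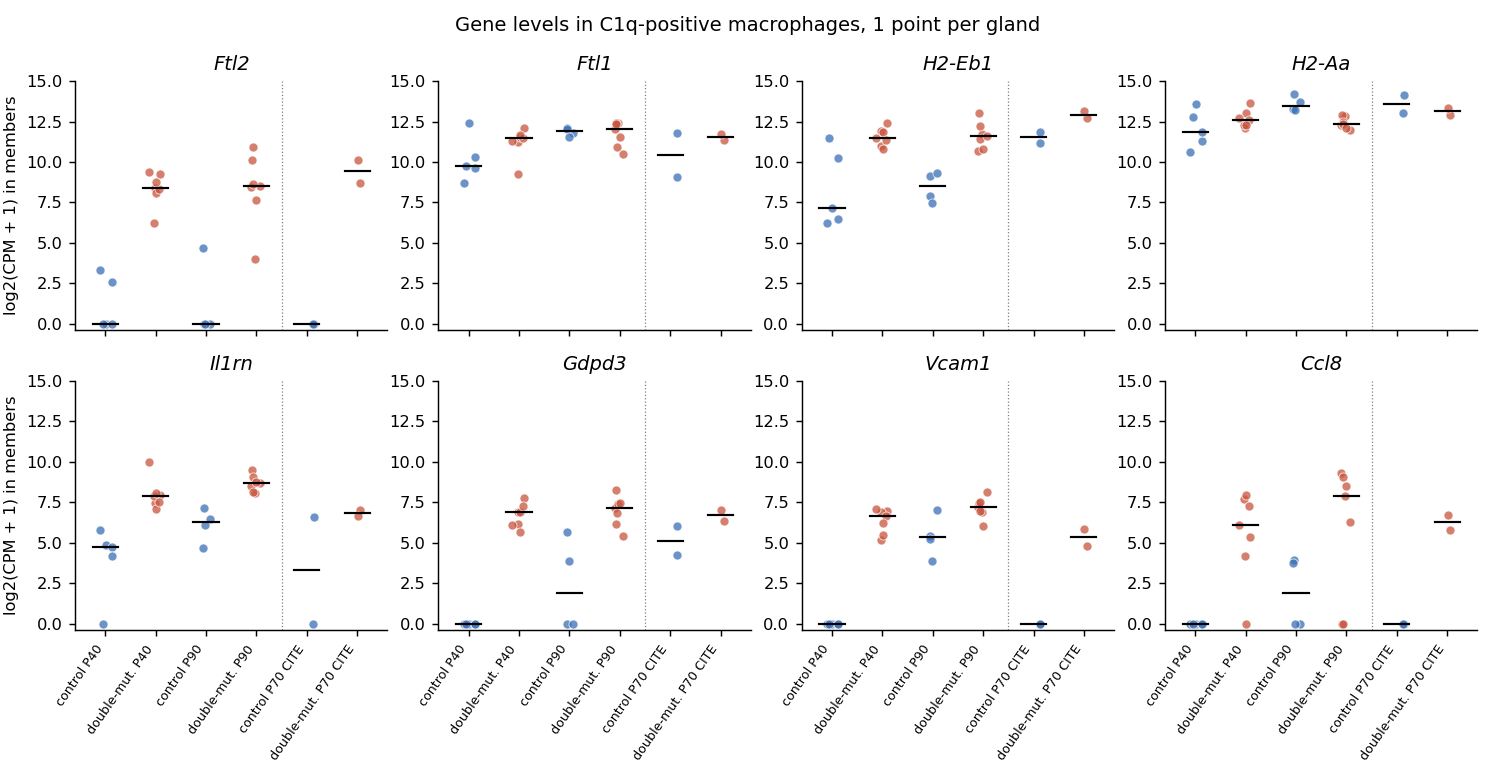
Levels of 8 genes in C1q-positive macrophages on a log2(CPM + 1) scale (y axis) by genotype, stage and assay (x axis). Each point is 1 gland with at least 10 members and lines are medians; Ftl2, Il1rn, Gdpd3 and H2-Eb1 were higher in nearly all double-mutant glands, while Ftl1 and H2-Aa overlapped and Ccl8 was at 0 in 3 double-mutant Drop-seq glands.

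Gene lists gave few calls. Among the lysosomal genes Grn, which encodes progranulin, rose (0.92 ± 0.22, adjusted p = 0.0280), and 17 of the 20 tested had a positive change, with a list median of 0.38. Cathepsin S and cathepsin B had changes of 0.25 ± 0.19 (adjusted p = 0.495) and 0.52 ± 0.20 (adjusted p = 0.153). Of 16 genes of Fc receptors and phagocytosis 1 was called, Itgb2, with a median of 0.36. No gene was called among 10 resident macrophage genes (median 0.22), 8 lipid and scavenger genes (0.18), 9 interferon genes (0.10), 8 of monocytes and inflammation (0.43), 6 of remodeling (0.43), 4 of iron and heme (0.09), 5 of proliferation (0.14) or 18 immediate early and heat shock genes (-0.09). The complement list is left out, since 3 of its 5 tested genes chose the members; the other two, the receptors C3ar1 and C5ar1, had changes of 0.29 ± 0.20 (adjusted p = 0.4685) and -0.02 ± 0.28 (adjusted p = 0.982). These medians stand beside -0.00 over all 1464 genes.

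**Figure D3:**
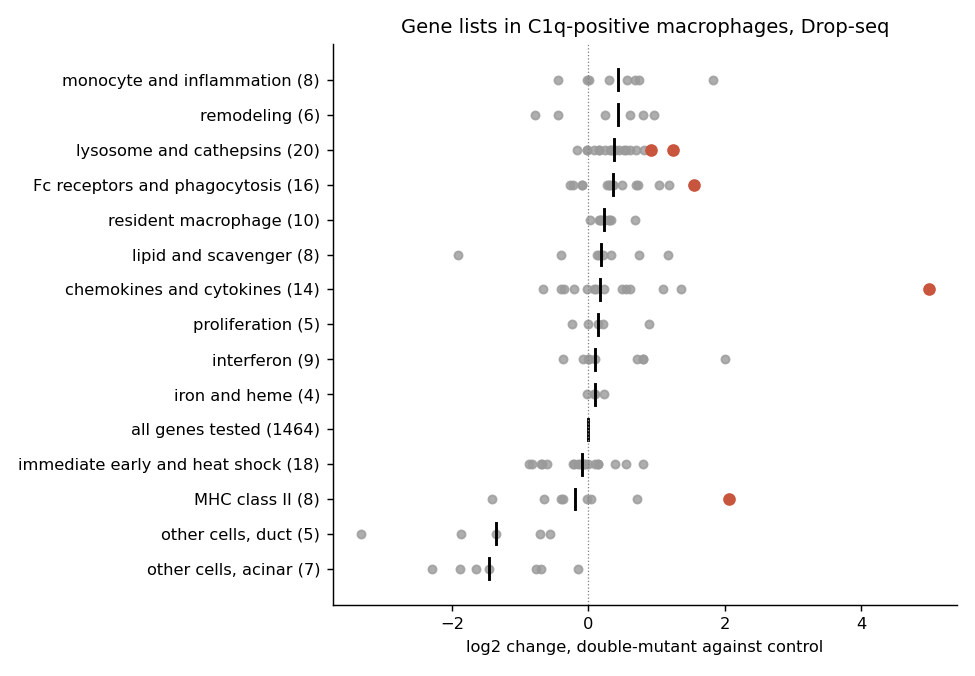
Log2 change between double-mutant and control glands (x axis) for the genes of each list other than complement (y axis, number of genes tested in parentheses). Points are genes, filled red where the adjusted p was below 0.05, and vertical bars are list medians; the medians of macrophage lists lay between -0.19 and 0.43, and those of the acinar and duct lists at -1.45 and -1.36.

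Transcripts of other cell types moved with genotype in members. Igha and Igkc, the immunoglobulin chains of plasma cells, rose by 6.001 ± 1.588 (adjusted p = 0.0398) and 5.26 ± 1.40 (adjusted p = 0.0402), with Igkc at 0 to 83.9 CPM in control and 14.8 to 12898 CPM in double-mutant glands. In other cells of the same glands Igkc was more abundant, at a mean of 1912 against 840 CPM in members. Igkc alone was tested of the 7 B and plasma cell genes in the files, whose summed level was 0 to 196 CPM in control and 14.8 to 16372 CPM in double-mutant members. The granular duct kallikreins Klk1b26, Klk1b5, Klk1b16, Klk1b8 and Klk1b22 fell in double-mutant glands, with log2 changes of -4.17, -4.13, -3.76, -3.505 and -3.43 (adjusted p from 0.00432 to 0.0240). In other cells their log2 changes were -2.80, -2.65, -2.19, -2.48 and -2.17, of which those of Klk1b5, Klk1b8 and Klk1b22 passed the test. Over both stages all 7 acinar and all 5 duct genes tested had negative changes, none past the threshold, with medians of -1.45 and -1.36. By stage the acinar median was -2.64 within P40 and 1.97 within P90, and the duct median -1.25 and -0.93. The Klk1b kallikreins are a near-identical family whose counts can be exchanged. The part of epithelial and plasma cell transcripts in the other results was not tested. Without members holding 2 or more of Krt8, Krt18 and Epcam, 32 of 1322 genes were called.

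Stages were then taken apart in 1 fit of 4 groups. Within P40, 4 of 1672 genes were called (0.239%), with Vcam1, Gdpd3 and Ftl2 higher and Ggh, a γ-glutamyl hydrolase of folate metabolism, lower (-2.60 ± 0.46, adjusted p = 0.00991). Ggh ranged from 113 to 226 CPM in the 5 control P40 glands and from 16.7 to 74.4 CPM in the 7 double-mutant P40 glands. The share of all genes tested whose P40 groups do not overlap was not computed, so nothing is read from these ranges. The number of genes called within P40 was 0 without control P40 replicate 2, 3, 4 or 6. It was also 0 without double-mutant P40 replicate 2 or 6, and 20 without control P40 replicate 1. Within P90, 18 genes were called (1.08%), 8 higher (0.478%) and 10 lower (0.598%). Beside Ftl2, H2-Eb1, Il1rn, Mdm2, Pou2f2 and Tgfbi, the rises were AA467197 (4.07 ± 0.85, adjusted p = 0.0148) and Eif5b, a translation initiation factor (1.41 ± 0.29, adjusted p = 0.0120).

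The falls at P90 included the heat shock genes Hsph1 (-2.46 ± 0.46, adjusted p = 0.00645), Dnajb1 (-2.74 ± 0.49, adjusted p = 0.00562) and Hspa1a (-2.04 ± 0.43, adjusted p = 0.0148). They also included Ccl3, a chemokine (-1.27 ± 0.32, adjusted p = 0.0488), and the EYFP reporter (-4.90 ± 0.94, adjusted p = 0.00702). EYFP was at 148 to 373 CPM in control P90 members and at 0 in 5 of 7 double-mutant P90 glands, and in other cells it also fell, by 1.99 ± 0.56 over both stages (adjusted p = 0.0389). Hsph1 was the 1 gene whose genotype effect differed between stages (interaction -3.86 ± 0.74, adjusted p = 0.0324; 1 of 1672, 0.0598%). Its level was 25.4 to 78.0 CPM in control P40, 216 to 546 CPM in control P90, 73.8 to 262 CPM in double-mutant P40 and 21.8 to 193 CPM in double-mutant P90 glands. The control P90 median of 439 CPM stood above those of the other groups (34.8, 170 and 63.4 CPM), with some overlap, and in controls stage and batch cannot be told apart. Without double-mutant P90 replicate 4 the interaction count was 0, as it was in 13 of the 23 fits that each left out 1 gland, that one included, and without control P90 replicate 6 the count within P90 was 0.

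Within double-mutant glands 0 of 1672 genes (0.0%) differed between P90 and P40 by edgeR, with 135 at an unadjusted p below 0.05 and 2 called by DESeq2. By sex, 2 of 1464 genes were called (0.137%), Klk1b16 and Bglap3, both higher in glands labelled male, and without the 2 libraries against their sex labels 7 were called, 5 higher and 2 lower. In CITE-seq members 2 of 1822 genes were called by genotype (0.11%), Igha and Igkc; the count was 0 without either control gland, and 47 and 7 without double-mutant replicates 1 and 2. Of the 35 genes called in Drop-seq, 25 were tested in CITE-seq, and 22 of these had the same sign, 14 rises and 8 falls. The share of same signs over all genes tested in both assays was not computed, so no agreement is read from this count.

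Surface protein tags, which had no part in choosing the cells, were read in all 165 control and 312 double-mutant CITE-seq members over 61 antibodies, 4 of them isotype controls. Antibody tags to MHC class II (IAIE_MHC) made up a median of 53.1% to 72.1% of the tags of a member in the 4 glands, against 0.839% to 1.07% in the other cells, and it was 54.4% and 53.1% in double-mutant against 70.9% and 72.1% in control glands. Of 61 tags, 22 differed between members and other cells of the same glands (36.1%; edgeR with gland as block), 11 higher and 11 lower. The highest were MHC class II (log2 difference 5.96 ± 0.72, adjusted p = 0.0001997), CD11b, the integrin α chain of CR3 (4.28 ± 0.42, adjusted p = 6.775e-05), and SIRPa, the CD47 receptor (3.37 ± 0.32, adjusted p = 6.775e-05). CD54 (2.26 ± 0.30), CD11c (2.11 ± 0.22) and CD16/32, the Fcγ receptors (0.93 ± 0.19), were also higher. Ly6C, a marker of monocytes, was lower (-0.87 ± 0.21, adjusted p = 0.0106), as was EpCAM of epithelial cells (-0.72 ± 0.17, adjusted p = 0.00953). Scaled to the isotype controls, neither passed the test (-0.47 and -0.32, adjusted p = 0.253 for each). Monocyte genes were uneven in Drop-seq RNA. Ccr2 and Ms4a4c stood at 84.7 and 45.5 CPM in members against 5.71 and 2.27 in other cells. Ly6c2 and Plac8 stood at 5.44 and 6.39 against 9.99 and 6.65. The other higher tags were PDCA1_CD137, Delta_Like_4, CD24, CD29 and CD38, and the other lower ones CX3CR1, CD8, CD25, Nectin2, CCR9_CD199, CD152, Notch1, CD97 and the isotype control mIgG2a. With no scaling beyond the tag total CD24, CD29, CD16/32 and CD38 were lower in members, and with 1 gland left out 12 to 17 tags were called, the fewest without double-mutant replicate 2.

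The scaling moved the low tags. Scaled to the 4 isotype controls, 14 tags were higher and 1, CD97, was lower, and CX3CR1 and CSF1R_CD115, whose genes were high in member RNA, had differences of -0.10 (adjusted p = 0.723) and 0.13 (adjusted p = 0.709). Against C1q-low MHC class II cells of the same glands 10 tags differed (16.4%), 7 higher and 3 lower (4.92%). With isotype scaling, chosen after seeing the data, 3 did, all higher in members: PDCA1_CD137 (2.16, adjusted p = 0.0153), Delta_Like_4, a Notch ligand (1.58, adjusted p = 0.0203), and CD16/32 (1.26, adjusted p = 0.0231). Between genotypes 0 of 61 tags (0.0%) differed among members by edgeR, with 11 at an unadjusted p below 0.05 and 0 by DESeq2, in 2 glands against 2.

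**Figure D4:**
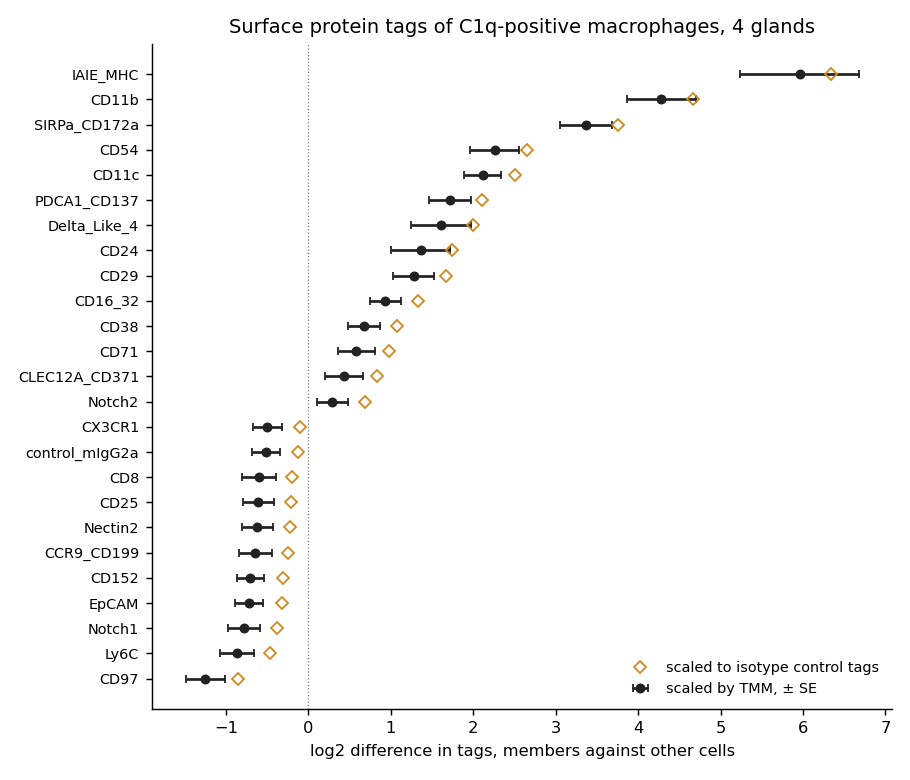
Log2 difference in antibody tags between C1q-positive macrophages and the other cells of the same 4 CITE-seq glands (x axis) for tags called under either scaling (y axis). Circles with bars are TMM-scaled values ± SE and diamonds are scaled to isotype control tags; MHC class II, CD11b and SIRPa stood highest at 5.96, 4.28 and 3.37, and most negative differences lay near 0 after isotype scaling.

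Bulk RNA, from a P70 control female and a P100 double-mutant female (1 gland each), gave counts without replicates and so without a test. C1qa had 570 and 1199 counts, C1qb 613 and 1079, and C1qc 503 and 874, of totals of 34515744 and 34729551. Ftl2 had 0 and 10 counts beside 4271 and 2561 for Ftl1, Gdpd3 4 and 93, H2-Eb1 519 and 1430, and Ccl8 31 and 353. In bulk tissue, more cells of a type and more RNA per cell cannot be told apart, and here stage and genotype differ together.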

How the data were processed

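Deposited whole-number UMI counts per gene and cell were made by the authors with Drop-seq tools on STAR alignments to mm10 with Cre and EYFP added; antibody tag counts came from CITEseq-count, and bulk read counts from featureCounts. Members were found as described above, no doublet caller was run, and the members and gene lists were chosen with earlier results of these data known. Member UMIs were summed per gland, the replicate, and tested in edgeR 4.0.16 (TMM, filterByExpr with the design, quasi-likelihood test, Benjamini-Hochberg adjustment, threshold 0.05; R 4.3.3) with sex, stage and genotype, or with sex and the 4 groups of genotype and stage. Tag sums were fitted likewise with gland as block. Shares were compared by two-sided permutation over glands (SciPy 1.17.1, exact within a stage, otherwise 100000 resamples) and by a binomial mixed model (lme4 1.1.37). Tests were checked on simulated counts. Alternatives included DESeq2 1.42.0, other filters and scalings, thinning, and leaving out glands. Genes named were members of the lists, the 12 largest rises and falls among called genes higher in members than in other cells, the 5 largest in each direction among those higher in other cells, and called genes by stage, sex and interaction, with predicted, clone, Rik and mitochondrial names left out, which passes over AA467197; AA467197, Tgfbi, Cd44, Lgals3bp, Slfn2, EYFP, Lyz1 and genes called within 1 stage were named after their values were seen. Glands are separate animals only as far as the labels say, so p-values measure the spread between these glands, and intervals and floors cover counting error only. Some items, among them sequence of the Ftl genes, are not reported here.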

Additional observations from a re-analysis of the deposited data

Results flagged for a closer look

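Of 64 groups of glands tested for a value far from the rest, 9 held one by Dixon's test, where chance gives about 1 in 20 groups. The share of C1q-positive macrophages in double-mutant P40 replicate 2 (17.89%) stood above the other 6 glands of its group. Retnla was flagged in 1 gland in each of 3 groups, at 5.089 CPM (1 UMI) in control P40 replicate 2, 2440 CPM in double-mutant P40 replicate 1 and 638.6 CPM in double-mutant P90 replicate 6. Ftl2 was at 24.63 CPM in control P90 replicate 5, with 0 in the other control P90 glands. Where all other glands of a group are at 0 the test flags any count, as for Retnla in control P40 and Ftl2 in control P90. Il1rn reached 995.7 CPM in double-mutant P40 replicate 5. In control P40 replicate 1 Mdm2 stood at 141.1 CPM and Tmem176a at 592.8 CPM, and in control P40 replicate 6 Hsph1 stood at 78.05 CPM. The genotype effect on Hsph1 differed between stages by -3.864 on the log2 scale, by the interaction test given above.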

How the results depend on the processing

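The higher share in double-mutant glands kept its direction and its side of the threshold in every alternative run. Under the alternatives no gene called by genotype changed direction; Ftl2, Il1rn, AA467197, Vcam1, Klk1b5 and Klk1b8 stayed past the threshold wherever they were tested, leaving out single glands excepted for AA467197 (19 of 23 fits). The cause of the other shifts was not tested. By genotype DESeq2 called 71 of 1464 genes, and 178 of 1464 were called without scaling beyond the total. Without a filter 144 of 18944 were called, and with glands of 5 or more members 79 of 1178. The log2 number of members as covariate gave 12 of 1672, and batch, in the batches of both genotypes, 83 of 1648. At the same total per gland 10 of 407 were called, where 12 of the 35 genes were tested. Without the exclusion for remodeling genes 92 of 1538 were called. With genotype alone in the filter, chosen after seeing the data, 16 of 972 were. Leaving out 1 gland gave 8 to 62 genes by genotype, 0 to 20 within P40, 0 to 37 within P90, 0 to 2 for the interaction, 0 to 2 by stage in double-mutant glands, 0 to 47 in CITE-seq and 12 to 17 tags. Fitting each stage alone gave 1 of 887 genes within P40 and 11 of 1452 within P90. By sex DESeq2 called 5 of 1464 genes, and 50 of 18944 were called without a filter. Without the 2 libraries against their sex labels 7 of 1397 were. For the interaction DESeq2 called 4 of 1672, and 33 of 18944 were called without a filter. With glands of 5 or more members 3 of 1417 were, and without double-mutant P90 replicate 4, 0 of 1676. By stage DESeq2 called 2 of 1672, and 62 of 18944 were called without a filter. In CITE-seq these were 13 of 1822 and 72 of 15790. The stage difference in share turned to -1.189 points at 1000 UMIs a cell. Without scaling beyond the tag total 56 tags differed from other cells and 7 by genotype, and CD24 (-0.22), CD29 (-0.32), CD16_32 (-0.67) and CD38 (-0.92) turned negative; without the 5% of barcodes with most tags, chosen after seeing the data, CD29 (-0.27) and CD38 (-0.22) did. Isotype scaling left 3 tags against C1q-low MHC class II cells.

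The replicate numbers do not pair the glands: of 9 same-numbered pairs 2 had a correlation of their deviations above 0.1 (-0.26 to 0.52). With the replicate block 54 of 2002 genes were called by genotype, 0 by sex and 1 by stage, and 12 of 1822 in CITE-seq.

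Few UMIs per member limit these comparisons to 1464 abundant genes.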

Other observations

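Lyz1, the Paneth cell lysozyme gene and neighbour of the macrophage lysozyme gene Lyz2, was at 0 in 6 of 9 control glands and at most 130 CPM, and ranged from 4.37 to 550 CPM (median 74.5) in members of double-mutant glands. CITE-seq members had 17.6 and 31.9 CPM of Lyz1 in control and 184 and 399 CPM in double-mutant glands. Lyz1 and Lyz2 are close paralogs whose counts can be exchanged.

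Of a member's UMIs in Drop-seq, a median of 4.13% in control and 3.28% in double-mutant glands were of MHC class II genes, and in CITE-seq 9.04% and 7.81%.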
